A study of Mus musculus with 27 samples.

Results

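A name rule for small RNAs of the cell nucleus took 110 of the 5486 rows of the deposited gene table, of which 86 are small RNAs. The members were every row whose gene name began with Snord, Snora, Scarna, Rnu, Rn7s or Rny, every row named Rmrp or Rpph1, and every row with a Gm number of a fixed range. No Rny, Rmrp or Rpph1 row was among the rows analysed. Of the 110 members, 24 carried a family name: 5 box C/D snoRNAs, 11 box H/ACA snoRNAs, the Cajal body RNA Scarna17, 6 spliceosomal snRNAs and the 7SK RNA Rn7sk. The other 86 had Gm numbers, and the GENCODE annotation of mm10 gave them as 28 snRNAs, 16 snoRNAs, 8 miscellaneous RNAs, 8 miRNAs, 2 rows of 5S rRNA type and 24 long noncoding RNAs. The long noncoding rows are not small RNAs, and entered only through their numbers. Counts below are of the 86 small RNA rows unless all members are named.

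The study asked whether leukemia cells differ between regions of the bone marrow (BM). RNA of 27 sorted samples was sequenced from the poly(A) end of transcripts and deposited as CPM, the reads of a gene scaled to a fixed total per library. The AML cells were granulocyte macrophage progenitors (GMPs) of mT/mG mice that had been transduced with a pMSCV-MLL-AF9-GFP retrovirus, and they were sorted as GFP+ mTomato+ cells from transplanted mice at full infiltration. Endosteal AML cells came from crushed metaphysis and central AML cells from flushed diaphysis, so region and handling cannot be told apart. Each AML batch stands for 1 primary donor, whose stored cells came from BM in batches 1 and 3 and from spleen in batch 19, and each batch had 3 endosteal and 3 central libraries. The 9 GMP libraries came in 3 control sets, called A, B and C, with 3 libraries in each, and were sorted from the whole marrow of wild-type mice of matched age and sex. The labels of the GMP libraries each name 3 mice, and whether a library is 1 mouse or a pool is not given in the sources used here. All p-values measure the spread between the libraries of a comparison, part of which may be technical. These were all 27 libraries for AML against GMPs, and the AML libraries alone for regions and batches. As each AML batch is 1 primary donor, p-values of AML against GMPs and of the batches do not measure the spread between leukemias. Fewer cells of a type cannot be told apart from less RNA per cell.

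Small nucleolar RNAs (snoRNAs) guide the modification and cleavage of ribosomal RNA, with box C/D members directing methylation and box H/ACA members directing the change of uridine to pseudouridine. Spliceosomal snRNAs (U RNAs) pair with splice sites and branch points: U1, U2 and U5 act in the major spliceosome, and U11 and U12 replace U1 and U2 in the minor one. 7SK RNA holds the elongation factor P-TEFb in an inactive state. Most of these RNAs end without a poly(A) tail, while the library kit primes on poly(A), so the values below are levels of whatever copies the primer caught.

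The sequences of the members on which the results turn are printed 5′ to 3′ as GENCODE gives them for mm10. The box C/D RNAs carry their boxes C (TGATGA) and D (CTGA) in capitals, and they are shown because their levels in AML cells went in both directions. Snord118 lies at chr11:69073427-69073561 on the plus strand, with no host gene on its own strand. Gm25789 lies at chr1:161038308-161038383 on the plus strand within Gas5, and Gm23130 at chr10:23786470-23786543 on the minus strand within Rps12.
Snord118: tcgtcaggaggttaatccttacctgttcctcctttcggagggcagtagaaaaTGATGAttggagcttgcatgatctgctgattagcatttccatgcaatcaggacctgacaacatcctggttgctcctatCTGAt
Gm25789: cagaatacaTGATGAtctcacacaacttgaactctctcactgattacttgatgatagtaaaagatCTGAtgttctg
Gm23130: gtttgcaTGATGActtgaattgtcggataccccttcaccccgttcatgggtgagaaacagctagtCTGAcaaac
The string TGATGA was in 5 of 5 named box C/D members and in 0 of 11 named box H/ACA members, and 26.1% of 1507 annotated snoRNAs of mm10 hold it on the transcript strand.

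The box H/ACA RNAs that fell most in AML cells have their last ACA in capitals. Snora73b lies at chr4:132352322-132352526 on the minus strand, in an intron of Rcc1 and Snhg3 and opposite to Gm17300, and Snora57 at chr19:8888538-8888685 on the minus strand, opposite to Lbhd1.
Snora73b: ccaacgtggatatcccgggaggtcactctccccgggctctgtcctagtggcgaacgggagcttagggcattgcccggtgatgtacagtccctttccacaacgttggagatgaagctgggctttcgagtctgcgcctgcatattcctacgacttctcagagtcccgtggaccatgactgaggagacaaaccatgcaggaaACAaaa
Snora57: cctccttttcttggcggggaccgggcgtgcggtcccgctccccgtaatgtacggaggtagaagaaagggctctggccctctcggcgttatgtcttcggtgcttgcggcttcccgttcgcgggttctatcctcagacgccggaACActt
An ACA within the last 7 bases was present in 11 of 11 named box H/ACA members, against 46.0% of the 1507 annotated snoRNAs.

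The snRNAs are shown because their rows moved as families between leukemias. Capitals mark the string ATTTTTG, a spelling of the site at which Sm proteins bind, and in Rnu2-10 also GTAGTA, with which U2 pairs to the branch point. Rnu2-10 lies at chr11:101658238-101658428 on the plus strand and Rnu12 at chr15:83149644-83149794 on the plus strand.
Rnu2-10: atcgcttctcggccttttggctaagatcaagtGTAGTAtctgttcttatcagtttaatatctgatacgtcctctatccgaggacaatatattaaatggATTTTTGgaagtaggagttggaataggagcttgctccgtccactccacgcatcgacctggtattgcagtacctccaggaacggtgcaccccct
Rnu12: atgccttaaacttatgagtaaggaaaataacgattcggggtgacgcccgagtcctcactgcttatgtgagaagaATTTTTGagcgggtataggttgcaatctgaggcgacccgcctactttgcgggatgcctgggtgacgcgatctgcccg
The string ATTTTTG was in 16 of 34 snRNA rows, against 3.33% of 1383 annotated snRNAs, and GTAGTA was in 12 of 12 U2 rows, against 3.69%. The U2 rows were grouped by likeness of sequence, so a shared string is not a separate case for each row. Near copies also enter the count of ATTTTTG.

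Many rows are near copies of each other. Joining rows of at least 90% identity over at least 90% of the longer row, or with at least 200 aligned bases, put 47 of the 86 small RNA rows with a partner and left 49 families. The U2 family held 12 rows, of which 4 are identical over their whole length (Rnu2-10, Gm23849, Gm23971 and Gm24950), the 7SK family 8, the U1 family 7 and the U5 family 6. Reads within shared sequence cannot be assigned to a single locus, so the rows of a family are not independent. Rows are still counted and named singly below, and counts by family are added for AML against GMPs, for the regions and for the batches.

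The 7SK rows show this in the values. Rn7sk (chr9:78175303-78175633, minus strand) and Gm24447 (chr15:93234363-93234700, plus strand) share their first 241 bases and then part, with 90 and 97 further bases. Bases 212 to 271 of each are shown, with the bases after the shared start in capitals.
Rn7sk: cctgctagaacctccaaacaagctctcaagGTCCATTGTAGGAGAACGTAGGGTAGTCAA
Gm24447: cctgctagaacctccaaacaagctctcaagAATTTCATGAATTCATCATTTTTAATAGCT
The level of Gm24447 was between 0.936 and 1.01 times that of Rn7sk in the 27 libraries (median 0.979), although the 2 rows lie on different chromosomes. Gm26315 was at a median of 0.915 times Rn7sk (0.690 to 0.960), Gm23624 at 0.288 (0.186 to 0.405) and Gm24146 at 0.209 (0.131 to 0.319). The U5 rows Gm25313 and Rnu5g had a median ratio of 1.04 (0.857 to 1.41). Other near copies did not run together so closely: Gm23971 was at a median of 1.56 times the identical Rnu2-10 (1.11 to 1.99), and Snora73a at 0.196 times Snora73b (0.0843 to 0.616).

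**Figure D1:**
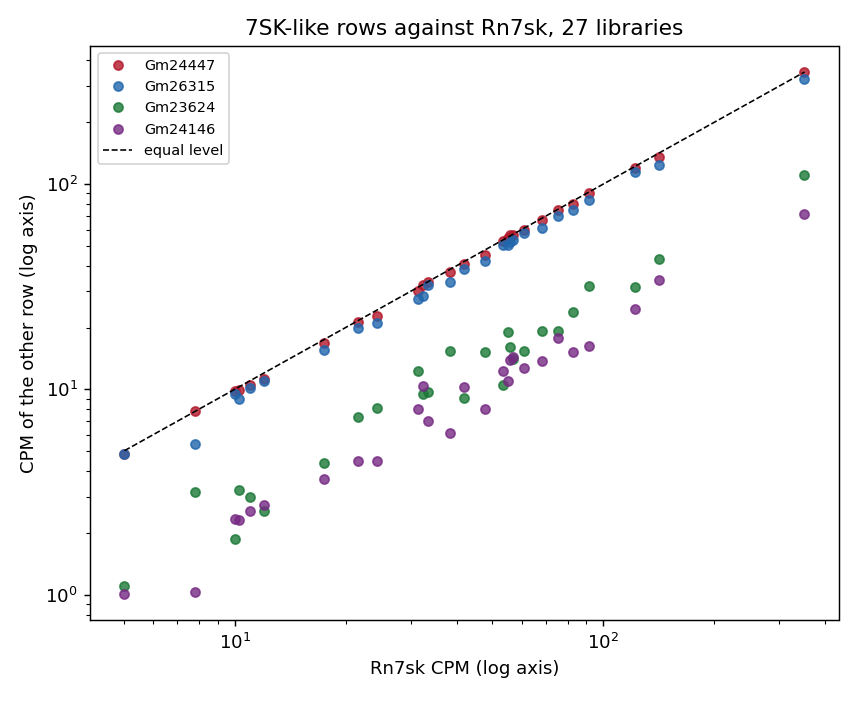
CPM of 4 rows of the 7SK family (vertical axis, log scale) against CPM of Rn7sk (horizontal axis, log scale), 1 point per library and row, 27 libraries; the dashed line marks equal levels. Gm24447 and Gm26315 lie along the line (median ratios 0.979 and 0.915), and Gm23624 and Gm24146 run below it (0.288 and 0.209).

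The 24 libraries whose size could be read from the CPM held 5600000 to 13410000 reads (median 9050000), and the deposited rows took 21.97% to 28.3% of the reads. The small RNA rows together were at 273, 772 and 3243 CPM in AML libraries (lowest, median and highest), against 441, 757 and 1170 CPM in GMP libraries. Libraries 3 (batch 3, endosteal), 9 (GMP) and 18 (batch 1, endosteal) stood apart: library 3 had 64441 CPM of Gm42418, a row that overlaps ribosomal RNA, library 9 had 747 genes at 0, and library 18 was highest for many members. The labelled cell types fitted their markers: 5 genes of the MLL-AF9 program (Hoxa9, Hoxa10, Meis1, Pbx3 and Eya1) summed to 334 to 649 CPM in AML libraries, against 45.01 to 61.6 CPM in GMP libraries, and 5 granule and progenitor genes (Mpo, Elane, Prtn3, Cd34 and Ms4a3) to 1029 to 5820 CPM, against 11476 to 26458 CPM.

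In AML cells against GMPs, box H/ACA snoRNAs and U2 RNAs were lower, while the ribosomal RNA processing snoRNAs Snord118 and Snord13 were higher. Without batch 3, the U2 rows Rnu2-10 and Gm23971 hardly differed, and in batch 1 the summed U2 level was not below that of GMPs. The Snord13 call was lost without batch 1 or with central AML libraries alone. Of the 86 small RNA rows, 76 passed the filter of 1 CPM in at least 3 libraries and were tested with limma on log2(CPM + 1). At an adjusted p under 0.05, 12 were higher in AML cells, which is 15.8% of those tested, where 50.7% of all 5160 genes tested were higher. Another 39 were lower, which is 51.3%, where 37% of all genes were lower. The median log2 fold change was -0.42 over the small RNA rows and 0.33 over all genes tested. When the change also had to reach 1 on the log2 scale, 4 small RNA rows were higher and 6 lower, against 18.2% and 12.4% of all genes. Of the 76 rows, 5 reached 1 CPM in AML libraries only and 5 in GMP libraries only, and such a row had to differ to be tested at all. Among the 66 that reached it in both groups, 7 were higher and 34 lower. With the long noncoding rows, 92 members were tested, 22 were higher, 43 were lower and the median was -0.35. Over these 92 members the median was -0.02 without batch 3, -0.67 without batch 1 and -0.20 with endosteal AML libraries alone, where that of all genes was 0.30, 0.36 and 0.30. Counting each family once by its summed level, 10 of 40 families were higher and 23 lower.

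**Figure D2:**
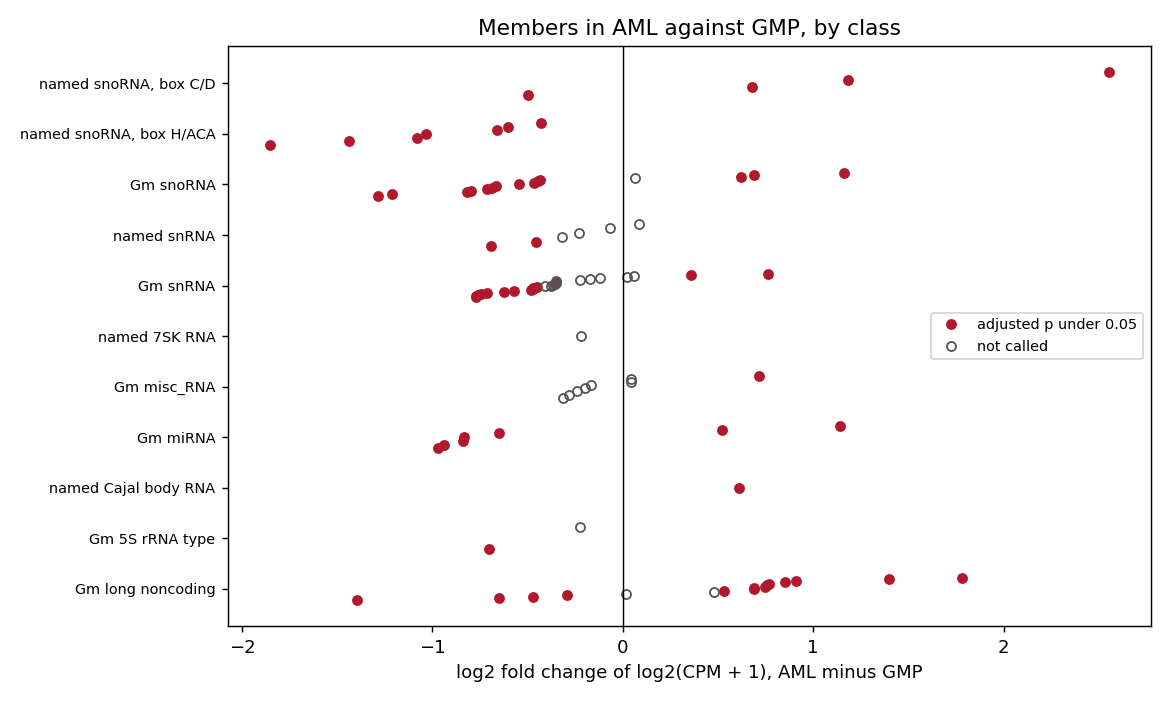
Log2 fold change of log2(CPM + 1), AML minus GMP (horizontal axis), of each of the 92 members tested, 1 point per row, by class; filled points passed an adjusted p of 0.05 and open points did not. All 7 named box H/ACA rows lie left of 0, and the 7SK row and 7 of 8 rows of misc_RNA type are open.

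Of the named box C/D snoRNAs that reached 1 CPM in both groups, 2 of 3 were higher and 1 was lower. Snord118 (U8), needed for the maturation of the RNAs of the large ribosomal subunit, was at 3.49, 15.1 and 51.96 CPM in AML libraries (lowest, median and highest), against 0.811, 1.40 and 2.58 CPM in GMP libraries. Every AML library was above every GMP library. This held for 2 of the 92 members tested, the other being the long noncoding row Gm26740, and for 8.14% of all genes tested. The log2 fold change of Snord118 was 2.55 ± 0.21 (SE, adjusted p = 5.31e-11). Set against GMPs by batch it was 3.04 in batch 1, 1.58 in batch 3 and 3.04 in batch 19, values that share the same GMP libraries.

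Snord13 (U13), which guides acetylation of 18S ribosomal RNA, was at 32.97, 75.9 and 1583 CPM in AML libraries, against 20.9, 32.5 and 182 CPM in GMP libraries. The groups overlapped, and the highest AML value was that of library 18. Its log2 fold change was 1.18 ± 0.35 (adjusted p = 0.00286), with 2.24 in batch 1, 0.94 in batch 3 and 0.37 in batch 19. Without batch 1 it was 0.66 (adjusted p = 0.058), and with central AML libraries alone 0.60 (adjusted p = 0.103), so the call was lost in both. Snord14a, a relative of the U14 RNA of 18S processing that lies within Rps13, was at 0.386, 1.17 and 3.504 CPM in AML libraries, against 0, 0.403 and 0.794 CPM in GMP libraries. It reached 1 CPM in AML libraries only, so it could enter the test only by being higher there (log2 fold change 0.68, adjusted p = 3.05e-04). Snord95, within Rack1, was lower (-0.50, adjusted p = 0.00276), with an AML median of 0.162 CPM and a GMP median of 0.559 CPM.

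The named box H/ACA snoRNAs were lower in 6 of 6 rows that reached 1 CPM in both groups, where 37% of all genes tested were lower. A further row, Snora43, reached it in GMP libraries only. Among the 6 rows, Snora73a and Snora73b are near copies and not independent. Snora65 reached 1 CPM in only 1 AML library and Snora9 in only 2. Snora73b (U17), which acts in the cleavage of the precursor of 18S RNA, was at 1.52, 5.72 and 79.1 CPM in AML libraries, against 11.8, 28.7 and 60.55 CPM in GMP libraries. Library 18 was the highest of all 27, and the groups overlapped. The log2 fold change was -1.85 ± 0.27 (adjusted p = 1.22e-06), and its near copy Snora73a stood at -1.08 (adjusted p = 9.99e-06). By batch, Snora73b differed from GMPs by -0.39 in batch 1 (adjusted p = 0.328), -2.31 in batch 3 and -2.86 in batch 19.

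Snora57, a guide for pseudouridine in ribosomal RNA, was at 3.75, 15.1 and 28.2 CPM in AML libraries, against 24.3, 40.8 and 55.6 CPM in GMP libraries, with an overlap at the highest AML and lowest GMP values. Its log2 fold change was -1.44 ± 0.17 (adjusted p = 2.82e-08), and by batch -0.83 in batch 1, -1.18 in batch 3 and -2.30 in batch 19. Snora43 did not exceed 0.229 CPM in any AML library, against 0.373 to 3.47 CPM in GMP libraries, and so could enter the test only by being lower in AML cells (log2 fold change -1.03, adjusted p = 3.77e-07). The others were low throughout: Snora9 stood at -0.66 and Snora65 at -0.60. Snora68 stood at -0.43 (adjusted p = 0.0255), a call that was lost without library 22 (-0.38), 23 (-0.38) or 25 (-0.31) and without batch 19 (-0.12). Snora3, Snora16a, Snora74a, Snora75 and Snord49a did not pass the filter. How reads were assigned to strands is not given in the sources used here, so reads of Snora57 and of its antisense neighbour Lbhd1 cannot be told apart, nor can those of Snora73b and Gm17300.

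Among the Gm-numbered snoRNA rows, 11 of 15 tested were lower and 3 were higher, and of the 11 that reached 1 CPM in both groups 9 were lower and 1 was higher. Gm23130 was at 0.352, 1.42 and 2.10 CPM in AML libraries, against 2.52, 3.65 and 7.24 CPM in GMP libraries, with no overlap, as for 6.32% of all genes tested in this direction, and a log2 fold change of -1.21 ± 0.16 (adjusted p = 2.13e-07). Gm22988, within Eif4a1, was at -1.28 (adjusted p = 1.02e-04). In the other direction, Gm25789 was at 0.522, 5.71 and 17.3 CPM in AML libraries, against 0.496, 1.55 and 6.84 CPM in GMP libraries (1.16 ± 0.28, adjusted p = 6.20e-04). Gas5, the noncoding host of many box C/D snoRNAs that contains Gm25789, was lower in AML cells (-0.60, adjusted p = 4.68e-04).

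SnoRNAs are usually cut out of introns, so member and host were set side by side where both were tested. Of the 86 small RNA rows, 48 lay inside a gene on the same strand, and the host was among the rows analysed for 20. For 6 snoRNA rows member and host were both tested, and 4 had a call in the direction of their host. Of these 4, only Gm25663 (-0.69), which lies in Uchl5 (-0.20) and Gm29170 (-0.92), reached 1 CPM in both groups. The other 2 were called opposite to their host: Gm25789 with Gas5 and Gm25517 (-0.55) with Gtf2f2 (0.65). The Gm25517 call was lost without control set C (-0.29), batch 3 (-0.38) or batch 19 (-0.46). Where an annotated transcript of the host covers the snoRNA, as for Gm25789, reads of host and member cannot be told apart.

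Scarna17, a guide for the modification of spliceosomal RNA, was at 4.75, 9.86 and 58.4 CPM in AML libraries, against 2.24, 6.54 and 14.8 CPM in GMP libraries, with much overlap. Its log2 fold change of 0.61 (adjusted p = 0.0241) was lost without library 8 (0.53), 9 (0.46) or 24 (0.53), without control set A (0.24) and without batch 1 (0.34).

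Of the 12 rows of the U2 family, 11 were lower in AML cells and 0 were higher. Their summed level was at 35.7, 112 and 511 CPM in AML libraries, against 110.5, 145 and 339 CPM in GMP libraries. It ran from 137 to 511 CPM in batch 1, 35.7 to 140 CPM in batch 3 and 67.5 to 132 CPM in batch 19. Both ends of the batch 1 range lay above those of the GMP libraries, so the leukemias did not move alike. AML and GMP libraries overlapped, and the summed log2 fold change was -0.60 ± 0.20 (adjusted p = 0.00667). Rnu2-10 itself was at 3.49, 11.5 and 61.0 CPM in AML libraries, against 9.12, 16.03 and 38.8 CPM in GMP libraries, and its log2 fold change was -0.46 (adjusted p = 0.0479). That call was lost without any of libraries 2, 4, 5, 9, 10, 13, 14, 15, 16, 17, 20, 21, 22, 23, 25 or 26, with values of -0.31 without library 25 and -0.47 to -0.39 without the others. Without batch 3, Rnu2-10 was at -0.07 and the identical row Gm23971 at -0.05.

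The minor spliceosome RNAs gave different results in this comparison. Rnu11 was at 5.93, 20.8 and 71.0 CPM in AML libraries, against 22.9, 32.7 and 49.4 CPM in GMP libraries (log2 fold change -0.69 ± 0.16, adjusted p = 3.51e-04), and without batch 3 it was at -0.26 (adjusted p = 0.149). Rnu12 was at 1.63, 8.93 and 59.0 CPM in AML libraries, against 3.22, 7.45 and 12.4 CPM in GMP libraries, and did not pass the test (0.08, adjusted p = 0.728). Set against GMPs it was at 1.04 in batch 1, -1.02 in batch 3 and 0.24 in batch 19. Rnu1a1 (-0.07), Rnu5g (-0.32) and Rnu1b6 (-0.23) did not pass either.

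Gm24265, an snRNA row at chr5:115489459-115489599 on the plus strand that holds ATTTTTG, was at 20.7, 72.1 and 136 CPM in AML libraries, against 22.5, 41.1 and 63.1 CPM in GMP libraries. Its log2 fold change was 0.76 ± 0.22 (adjusted p = 0.00315), with overlap between the groups. Rn7sk was at 5.03, 37.6 and 351 CPM in AML libraries, against 7.83, 53.3 and 91.4 CPM in GMP libraries, and 0 of the 8 rows of its family passed the test (Rn7sk -0.22 ± 0.34, adjusted p = 0.552). For these 8 rows limma gave 0 with an unadjusted p under 0.05 too. Against GMPs, Rn7sk was at 0.00 in batch 1, -1.82 in batch 3 and 1.17 in batch 19.

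Of the 5 rows annotated as miRNAs that reached 1 CPM in both groups, 4 were lower and 1 higher. The 4 lower rows, Gm23935, Gm24187, Gm24270 and Gm25911, are near copies of 56 or 57 bases and form 1 family. They were not compared with named miRNAs, and whether they are miRNAs or copies of another RNA was not tested. Gm23935 was at 3.22, 12.5 and 92.8 CPM in AML libraries, against 11.0, 23.6 and 29.7 CPM in GMP libraries (-0.97, adjusted p = 0.00616). Without batch 3 it was at -0.54 (adjusted p = 0.144). Gm25397, which an annotated transcript of Arid2 covers, was higher (1.14), as was Arid2 itself (1.505).

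**Figure D3:**
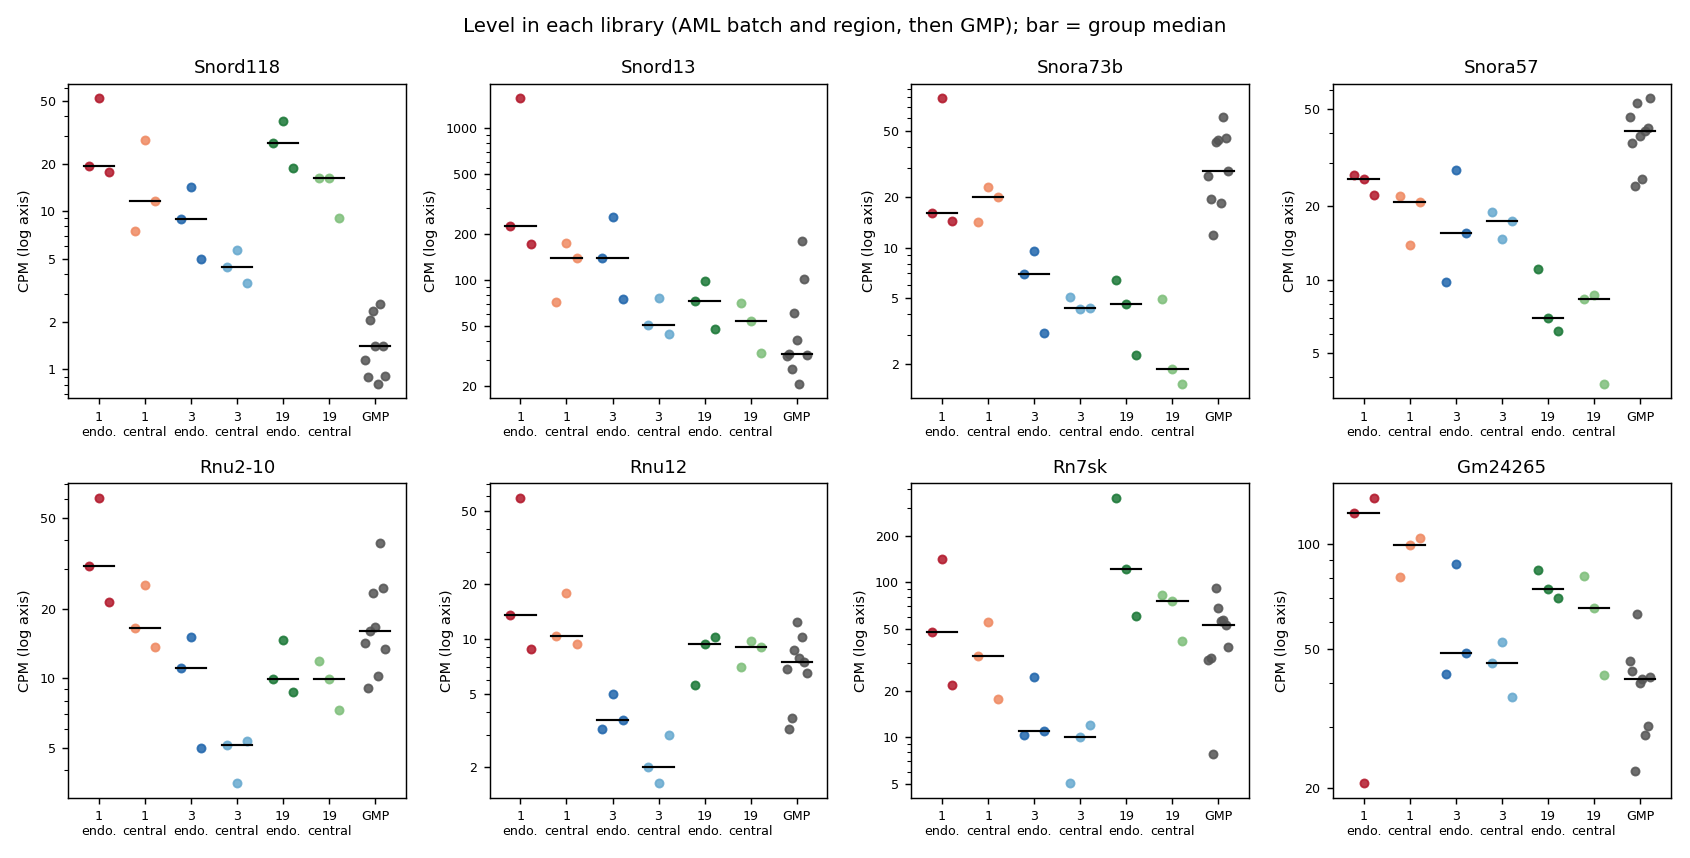
CPM on a log axis of 8 members in each of the 27 libraries, 1 point per library, by AML batch and region and then GMP; bars are group medians. Every AML point of Snord118 (3.49 to 51.96 CPM) lies above the GMP points (0.811 to 2.58 CPM), most AML points of Snora57 lie below the GMP points, and Rn7sk and Rnu12 are lowest in batch 3.

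Proteins that work with these RNAs were given from lists. In AML cells 50.7% of all 5160 genes tested were higher and 37% were lower. Of 22 snoRNP proteins on the list, 6 were among the rows tested and all 6 were lower in AML cells (median -0.69), such as Nolc1 (-0.78), a chaperone of snoRNPs, Naf1 (-0.75), which assembles box H/ACA particles, and Nop10 (-0.63), a core protein of these. Of 35 spliceosomal snRNP and LSM proteins 7 were tested, with 5 lower (Prpf4 at -0.95, Snrpd2 at -0.77 and Gemin5 at -0.64) and 1 higher. Of 41 factors of snRNA transcription and end processing 8 were tested, with 5 higher (Ints12 at 1.04) and 3 lower, among them Maf1, a repressor of RNA polymerase III (-0.73). These are 62.5% and 37.5%, near the shares of all genes. Of 56 host genes by name 16 were tested, with 6 higher (Snhg11 at 1.64) and 8 lower (Snhg7 at -1.05). Of 27 exosome and adenylation factors 3 were tested, with 1 higher and 2 lower, and of 27 proteins of 7SK, SRP, RNase P and RNase MRP particles 6 were tested, with 2 higher and 1 lower.

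Other measures moved with the comparison of AML cells and GMPs. Gm42418 was at a median of 5689 CPM in AML libraries (926 to 64441), against 31293 CPM in GMP libraries (15888 to 53649). Histone genes, whose transcripts also mostly lack poly(A) tails, were higher in 2 and lower in 30 of 50 rows. These are 4% and 60%, against 50.7% and 37% of all genes tested. The megakaryocyte markers (3 of 4 in the table) summed to 0.288 to 8.79 CPM in AML libraries, against 26.01 to 129 CPM in GMP libraries, Nkg7 (1 of 5 T and NK cell markers in the table) was at 4.43 to 42.7 CPM, against 156 to 299 CPM, and the 2 erythroid markers of 6 in the table summed to 0 to 1.73 CPM, against 4.57 to 14.1 CPM. Not all markers of other cells were lower. Of the 3 stroma and endothelium markers tested 1 was higher and 2 were lower, and of the 2 B cell markers tested 1 was higher and 0 lower. The part of these measures in the differences of the small RNAs was not tested. Another scaling (TMM or quantile) moved the median log2 fold change of all genes to 0.18 and that of the members to -0.51 and -0.54, with 21 and 20 members higher and 50 and 51 lower.

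Between endosteal and central AML cells no member passed the test, and most of the values were higher in endosteal cells. With batch as a block, limma called 0 of 66 small RNA rows tested, and 0% of all 4820 genes tested, at an adjusted p under 0.05. At an unadjusted p under 0.05, limma gave 22 of the 66 rows and 223 of the 4820 genes. The 22 rows included 10 of 12 U2 rows and 4 of 8 7SK rows, which are near copies, so the shares cannot be compared directly. By family, 0 of 31 were called. Over all 81 members tested, long noncoding rows included, edgeR on recovered reads gave 0 calls and 25 at an unadjusted p under 0.05, where limma gave 23. The median log2 difference was 0.33 over the small RNA rows and 0.02 over all genes. A positive difference in each of the 3 batches was found for 31 of 66 small RNA rows (47%), against 700 of 4820 genes (14.5%), and a negative one in each for 2 rows, against 406 genes (8.42%). The 31 rows included 11 of 12 U2 rows and 8 of 8 7SK rows, which are near copies and not independent.

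Snord118 was at a median of 18.8 CPM in endosteal libraries (4.96 to 51.96), against 9.03 CPM in central libraries (3.49 to 28.3). In batch 1 the endosteal libraries had 19.4, 51.96 and 17.8 CPM, against 7.54, 28.3 and 11.6 CPM in central libraries. In batch 3 they had 8.89, 14.2 and 4.96 CPM, against 4.42, 5.67 and 3.49 CPM, and in batch 19 they had 26.998, 37.35 and 18.8 CPM, against 16.1, 16.1 and 9.03 CPM. Only in batch 19 did the regions not overlap. The log2 difference was 0.89 ± 0.25 (adjusted p = 0.887), with 0.90, 0.82 and 0.95 in batches 1, 3 and 19, and without library 18 it was 0.75.

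Snord13 was at a median of 140 CPM in endosteal libraries (47.7 to 1583), against 70.5 CPM in central libraries (32.97 to 175), a log2 difference of 1.17 ± 0.37 (adjusted p = 0.887). It was 1.70, 1.32 and 0.47 in batches 1, 3 and 19, and fell to 0.84 without library 18. Rnu2-10 had medians of 14.6 and 9.94 CPM in endosteal and central libraries, a log2 difference of 0.66 with 0.90, 0.91 and 0.17 in batches 1, 3 and 19. Rn7sk had medians of 47.9 and 33.5 CPM, a log2 difference of 0.82 with 0.71, 0.66 and 1.10. Leaving out 1 library at a time moved Rnu2-10 between 0.53 (without library 18) and 0.76 (without library 5). Rn7sk moved between 0.61 (without library 10) and 1.01 (without library 20). Without libraries 3, 9 and 18, Rnu2-10 was at 0.40 and Rn7sk at 0.52.

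The snoRNA row Gm25789 had the opposite sign, with a median of 4.18 CPM in endosteal libraries and 8.33 CPM in central libraries. In batch 19 the endosteal libraries had 3.65, 4.46 and 6.05 CPM, against 8.47, 12.8 and 8.33 CPM in central libraries, and in batch 3 they had 3.86, 4.18 and 5.37 CPM, against 8.45, 6.6 and 6.73 CPM. The regions did not overlap in these batches but did in batch 1, with 3.53, 0.522 and 6.77 CPM in endosteal libraries, against 17.3, 4.16 and 4.14 CPM in central libraries. The log2 difference of -0.86 ± 0.27 was the lowest among the genes tested here (adjusted p = 0.887). Scarna17 differed by 1.58 in batch 1, -0.21 in batch 3 and 0.23 in batch 19. A region effect that differs between batches was called by limma for 0 of 81 members and 0% of all genes, with 5 members and 289 genes at an unadjusted p under 0.05, and edgeR gave 0 calls and 7 members. Histone rows had a positive difference in 50 of 50 (median 0.23), with 0 called and 2 at an unadjusted p under 0.05, and Gm42418 was at a median of 6126 CPM in endosteal and 4430 CPM in central libraries, and the part of these in the differences was not tested. Without libraries 3, 9 and 18, 12 members had an unadjusted p under 0.05.

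**Figure D4:**
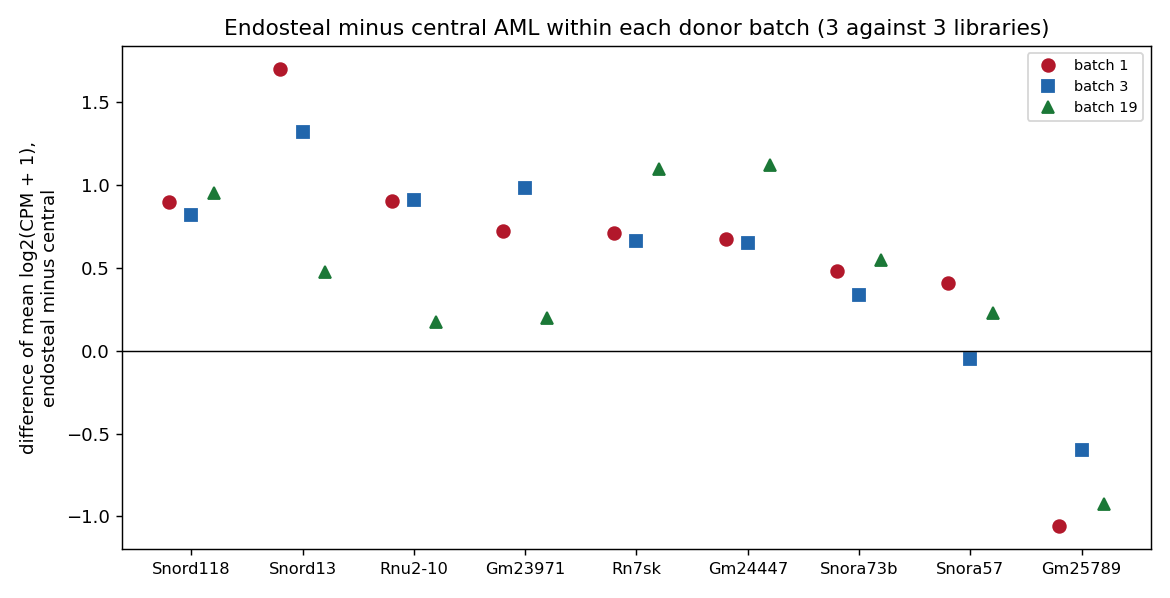
Difference of mean log2(CPM + 1), endosteal minus central (vertical axis), of 9 members within each AML batch, 3 against 3 libraries; each symbol is 1 batch and no error is drawn. Snord118 is at 0.90, 0.82 and 0.95, Rnu2-10 and Rn7sk are above 0 in each batch, and Gm25789 is below 0 in each.

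Many members differed between the AML batches, with most rows of spliceosomal RNAs higher in batch 1 and lower in batch 3. Each batch was set against the average of the remaining ones with a term for region, so these comparisons share libraries. The filter of 1 CPM in at least 3 libraries could be met within 1 batch. The long noncoding row Gm26617, for example, reached 1 CPM in batch 19 only. Such rows were not counted apart, so all batch counts, by row or by family, include rows that could enter by being higher in 1 batch. In batch 1, 42 of 66 small RNA rows tested were higher (63.6%), against 27.9% of all 4820 genes, and 1 was lower (1.52%), against 28%. In batch 3, 1 row was higher (1.52%), against 13.2%, and 43 were lower (65.2%), against 15%. In batch 19, 11 rows were higher (16.7%), against 22.4%, and 11 were lower (16.7%), against 22.2%. The median log2 fold change of these rows was 0.79 in batch 1, -0.996 in batch 3 and 0.04 in batch 19, and that of all genes -0.04, 0.00 and 0.00.

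In batch 1 most rows of spliceosomal RNAs were higher, with calls for 29 of 30 snRNA rows, among them 12 of 12 U2, 7 of 7 U1 and 6 of 6 U5 rows. The rows of each of these families are near copies and not independent. The row without a call was Gm24265, the snRNA row of highest mean level (0.47, adjusted p = 0.18). Rnu2-10 was at 13.8, 23.5 and 61.0 CPM in batch 1 (lowest, median and highest), against 3.49, 5.25 and 15.1 CPM in batch 3 and 7.27, 9.95 and 14.6 CPM in batch 19, and only the lowest batch 1 library reached into the range of the others. Its log2 fold change was 1.48 ± 0.24 (adjusted p = 4.96e-05). Rnu12 was at 1.43, Rnu11 at 1.19, Rnu5g at 1.05 and Rnu1a1 at 0.88.

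The named box H/ACA snoRNAs were higher in batch 1 in 4 of 4 rows tested. Snora73b was at 14.2, 18.2 and 79.1 CPM in batch 1, above each of the 12 other AML libraries (3.06 to 9.58 CPM in batch 3 and 1.52 to 6.42 CPM in batch 19), with a log2 fold change of 2.19 ± 0.31 (adjusted p = 1.10e-05). Snora57 was at 0.91 and Snora73a at 0.87. Snord13 was at 72.1, 174 and 1583 CPM in batch 1, against 44.5, 75.9 and 262 CPM in batch 3 and 32.97, 62.4 and 98.3 CPM in batch 19 (1.58 ± 0.39, adjusted p = 0.00244). Scarna17 (0.83, adjusted p = 0.0281) lost its call without library 16 (0.74) or 18 (0.50), and Snord118 (0.73, adjusted p = 0.0274) without library 18 (0.53) or 19 (0.52). The 7SK family had 0 of 8 rows called in limma, with 0 at an unadjusted p under 0.05.

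In batch 3 most rows of spliceosomal RNAs were lower, with 28 of 30 snRNA rows called, among them 12 of 12 U2, 6 of 6 U5 and 6 of 7 U1 rows. Gm24265 was again not called (-0.56, adjusted p = 0.17). Rnu12 was at 1.63, 3.10 and 4.99 CPM in batch 3, below each of the 12 other AML libraries, which began at 5.64 CPM (log2 fold change -1.65 ± 0.28, adjusted p = 2.43e-04). The 7SK rows were lower in 8 of 8, and Rn7sk was at 5.03, 10.6 and 24.4 CPM in batch 3, against 17.5, 40.7 and 141 CPM in batch 1 and 41.8, 79.0 and 351 CPM in batch 19 (-2.40 ± 0.37, adjusted p = 9.87e-05). Snord118 was at -1.46 (adjusted p = 4.55e-04), Rnu11 at -1.30 and Rnu2-10 at -1.15. The named box H/ACA rows had 0 of 4 calls in limma, with 1 at an unadjusted p under 0.05. With endosteal libraries alone, 3 in each batch, 5 members were called in place of 47, long noncoding rows included in both counts, and Rnu2-10 was at -0.96 (adjusted p = 0.171) and Rnu12 at -1.49 (adjusted p = 0.108).

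In batch 19 the 7SK RNAs were higher and the box H/ACA snoRNAs lower. All 8 rows of the 7SK family were called higher, with Rn7sk at 2.08 ± 0.37 (adjusted p = 1.73e-04), library 10 being the highest of all (351 CPM). The named box H/ACA rows were lower in 4 of 4: Snora73b at -1.51, Snora57 at -1.29, Snora68 at -0.93 and Snora73a at -0.51. Snora57 was at 3.75, 7.66 and 11.1 CPM in batch 19, against 13.9, 22.2 and 26.8 CPM in batch 1 and 9.79, 16.5 and 28.2 CPM in batch 3 (adjusted p = 4.12e-05). Of 30 snRNA rows 1 was higher (Gm24305) and 1 lower. Snora73a lost its call without library 13 (-0.51), 14 (-0.45) or 15 (-0.48), and Snord13 (-1.22, adjusted p = 0.0161) without library 14 (-1.03).

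**Figure D5:**
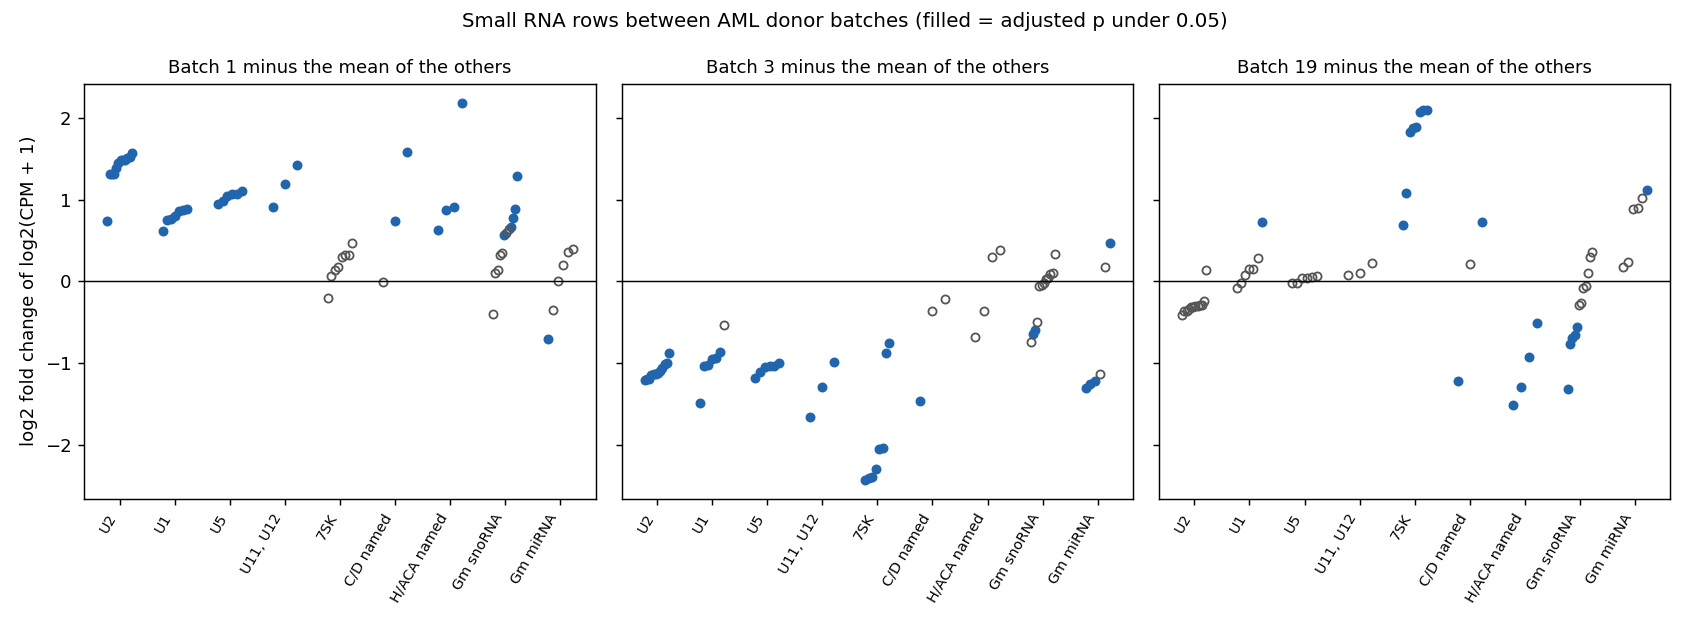
Log2 fold change of log2(CPM + 1) of the small RNA rows in batch 1, 3 or 19 minus the mean of the other batches (vertical axis), 1 point per row, by family or class; filled points passed an adjusted p of 0.05. The 12 U2 rows are all above 0 in batch 1 and all below 0 in batch 3, and the 8 7SK rows are all below 0 in batch 3 and all above 0 in batch 19.

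Counting each family once, 18 of 31 families were higher and 1 lower in batch 1, 1 higher and 12 lower in batch 3, and 2 higher and 9 lower in batch 19. Histone genes were higher in 48 of 50 rows in batch 1 (median 1.01), lower in 31 in batch 3 (median -0.71) and lower in 17 in batch 19 (median -0.30). Among all 4820 genes tested, 27.9% were higher and 28% lower in batch 1. These shares were 13.2% and 15% in batch 3, and 22.4% and 22.2% in batch 19. Gm42418 had a median of 11281 CPM in batch 1, 3989 CPM in batch 3 and 3279 CPM in batch 19. Of 6 snoRNP proteins 1 was higher in batch 1 and 1 lower in batch 19, and of 7 spliceosomal snRNP and LSM proteins 1 was higher and 2 lower in batch 1, and 2 were higher and 1 lower in batch 19. Genes listed as markers of other cell types also moved with the batches. Nkg7, which the GMP libraries held at 156 to 299 CPM, had a log2 fold change of 1.43 in batch 1 and -1.15 in batch 3. Itga2b, the only megakaryocyte marker tested of 4, was at 1.93, -0.75 and -1.19 in batches 1, 3 and 19. Cxcl12, the only stroma marker tested of 6, was at -2.70, 1.39 and 1.31. The 2 B cell markers tested went in opposite directions, with 2.36 and -1.01 in batch 19. Among the GMP markers Mpo was at -2.81, 1.07 and 1.74, and Ms4a3 at 2.54, 2.29 and -4.84. The part of RNA composition or of other cells in the differences between batches was not tested, and batch, primary donor and, for batch 19, the tissue of the stored cells cannot be told apart.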

How the data were processed

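RNA was extracted with RNeasy columns and libraries were made with the QuantSeq 3′ kit. The authors trimmed reads with Cutadapt 1.9, aligned them to mm10 by HISAT2 and deposited CPM, scaled to the library total, from featureCounts output. The deposited log2 values (fold changes and mean levels) and the deposited FDR, an adjusted p-value that is under 0.05 for all 5486 genes, come from the authors' voom and limma comparisons and were not used, except that this FDR selected the genes. Column names give the group of a library but not its sample, so libraries are called by the leading number of the column. Values came out as whole reads (100% within 0.1 read), and 24 of 27 libraries had a step that could be told from rounding.

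CPM were tested as log2(CPM + 1), on the scale of which changes of low rows are understated, by two-sided trended limma 3.58.1 (R 4.3.3) and Benjamini-Hochberg adjustment over all rows with at least 1 CPM in at least 3 libraries. The methods used voom on counts, for which only CPM were at hand. AML against GMP used 27 libraries in 7 groups, and the other comparisons used the 18 AML libraries. Rows were joined into families with BLAST 2.17.0, and whole reads were tested with edgeR 4.0.16 as an alternative. Other alternatives were pseudocounts of 0.5 and 3, no filter or 5 CPM, TMM and quantile scaling, and leaving out each library, batch, control set or region. Leaving out libraries 3, 9 and 18 and summing near-identical rows were chosen after the data were seen.

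Every member with a family name may be named. The sequence of Snord13 is not reported here. Of the Gm rows, the 6 of highest mean CPM in each class and the 2 of smallest p in each direction of a comparison are named, with their hosts and up to 4 genes of each protein list. The members and lists were chosen with earlier results of these data known.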

Additional observations from a re-analysis of the deposited data

Results flagged for a closer look

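A library was looked at again where it lay far from the others of its batch or of the GMPs in Dixon's test, for 68 combinations of a group with a member or a class sum. Chance alone gives such a result in about 1 in 20.

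Library 18 (batch 1, endosteal) was the highest of its batch with 79.1 CPM of Snora73b (next 23.1), 61.0 CPM of Rnu2-10 (next 30.7), 141 CPM of Rn7sk (next 55.2), 59.0 CPM of Rnu12 (next 17.8) and 1583 CPM of Snord13 (next 226). The same library had 1642 CPM in the summed box C/D rows (next 248), 121 CPM in the summed box H/ACA rows (next 50.1), 76.8 CPM in the Gm-numbered snoRNA rows (next 46.7) and 375 CPM in the misc_RNA rows (next 149).

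Library 3 (batch 3, endosteal) had 24.4 CPM of Rn7sk (next 12.0), 44.3 CPM in the box H/ACA rows (next 28.9), 61.9 CPM in the misc_RNA rows (next 30.8) and 62.0 CPM in the rows annotated as miRNAs (next 24.6). Library 10 (batch 19, endosteal) had 351 CPM of Rn7sk (next 122), 944 CPM in the misc_RNA rows (next 325) and 164 CPM in the miRNA rows (next 64.0), and library 17 (batch 1, central) had 291 CPM in the miRNA rows (next 68.1).

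Among the GMP libraries, library 25 was the highest with 182 CPM of Snord13 (next 102) and 187 CPM in the box C/D rows (next 105), and the lowest with 41.4 CPM in the miRNA rows (next 69.1).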

How the results depend on the processing

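No called value of a member reversed its sign under any alternative run. Counts here are of all members, long noncoding rows included. The 65 called in AML against GMPs became 33 with a filter at 5 CPM, 43 without batch 3 and 33 families when near-identical rows were summed. The 52 called in batch 1 became 32 with a filter at 5 CPM, 33 with endosteal libraries alone and 19 families. The 47 in batch 3 became 5 with endosteal libraries alone and 13 families, and the 29 in batch 19 became 14 with a filter at 5 CPM, 18 with endosteal and 19 with central libraries alone, and 11 families. The stricter filter and the sums leave fewer rows to test, and a single region leaves fewer libraries. For the others the cause was not tested. Leaving out 1 library at a time gave 57 to 66 calls in AML against GMPs, 49 to 54 in batch 1, 41 to 51 in batch 3, 22 to 32 in batch 19 and 0 between regions or for their difference between batches. Without libraries 3, 9 and 18 the counts were 76, 52, 53, 32 and 0. Without the batch as a block, 0 members were called between regions and 3 had an unadjusted p under 0.05.

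No paired analysis was possible because no label or column name ties an endosteal to a central library of the same mouse, and the order of the columns was not used as a pairing. At 5600000 to 13410000 reads per library, rows below 1 CPM rest on few reads. The preselected table limits every share given here to its 5486 genes.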

Other observations

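The long noncoding rows caught by the name pattern were higher in AML cells than in GMPs in 10 of 16 tested (62.5%) and lower in 4 (25%), which is near the 50.7% and 37% of all genes tested and no result about these rows. Of the 16, 2 reached 1 CPM in AML libraries only. Gm26740 was at 2.87, 5.21 and 11.8 CPM in AML libraries (lowest, median and highest), against 0.099, 1.16 and 1.63 CPM in GMP libraries, with no overlap (log2 fold change 1.78, adjusted p = 1.44e-08 from limma). Gm26853 was lower (-1.40). Gm26520 was at 0 to 0.144 CPM in batch 19, below each library of batch 1 (2.61 to 5.85 CPM) and of batch 3 (1.11 to 2.89 CPM).

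Over the 27 libraries, the genes outside the members whose log2(CPM + 1) followed the summed level of the named snoRNA rows most closely were Cd47 (Pearson r = 0.911), Gramd1b (0.886), Iqgap1 (0.872), Mir223 (0.872) and Gm38042 (0.861). Without library 18 these were 0.841, 0.751, 0.811, 0.717 and 0.700. The libraries share batches and groups, so the values only describe these 27 points.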
